A study of Mus musculus with 2 samples.

Results

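YAP1 and its partners were followed here through 10 genes: the coactivators Yap1 and Wwtr1 (which encodes TAZ), the transcription factor Tead1, the secreted CCN genes Ctgf, Cyr61 and Wisp1, the muscle ankyrin repeat gene Ankrd1, the angiomotin genes Amotl1 and Amotl2, and the kinase gene Lats2. Members were every probe for a mouse transcript that carried 1 of these gene names on the array, which gave 14 of 55681 probes and 10 of 34650 gene names. The genes were picked with their levels and differences on these arrays already known, so the values below describe them and test nothing. RefSeq now names Ctgf Ccn2, Cyr61 Ccn1 and Wisp1 Ccn4, and the names on the array are kept.

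The study compared 2 ways of making epiblast stem cells from mouse embryonic stem (ES) cells of the line E14Tg2A, strain 129/Ola, grown in serum and LIF on gelatin. EpiSC were made by giving ES cells FGF2 (12 ng/mL) and Activin A (20 ng/mL) in a chemically defined minimal medium. ELA-EpiSC received the same factors after the ES cells had passed through Epiblast-Like Aggregates (ELA), which float free once serum and LIF are withdrawn and were dissociated before culture went on. Each group was 1 Cy3-labelled array of RNA pooled from 3 experiments on that single cell line, so the spread between cultures was lost in the pool. No genotype or agent other than these was named for either group, and neither was a passage number. The titles gave the groups. The source labels go against them: that of EpiSC speaks of an Argonaute precipitate and that of ELA-EpiSC of total RNA, both from cells at 0DIV, a conflict not tested here. In EpiSC 65.8% of probes were well above background and in ELA-EpiSC 65.0%, 0 spots were saturated, and the median spot signal was 71.7 and 79.1 intensity units over a local background of 26 and 25. The only error available was spot noise: over 312 probes printed 10 times and detected on both arrays, the difference between arrays carried an SD of 0.10 on the log2 scale. All 15 epiblast markers on the list used were detected on both arrays, with a summed normalized intensity of 353140 in EpiSC and 369149 in ELA-EpiSC. The brightest of them, Dnmt3b, was lower in ELA-EpiSC (normalized log2 level 17.07 in EpiSC and 16.25 in ELA-EpiSC), while 13 of the 15 were higher there. The nearness of the sums therefore does not mean that the markers were level. Detection did not single out epiblast, since 12 of 12 extraembryonic endoderm markers and 11 of 12 trophoblast markers were also detected in EpiSC.

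YAP1 and TAZ are the effectors of the Hippo pathway. The kinases MST1 and MST2 activate LATS1 and LATS2, which phosphorylate YAP1 and TAZ and hold them out of the nucleus. When that brake is off, they enter the nucleus, bind TEAD factors and switch on target genes, of which CTGF, CYR61 and ANKRD1 are those most often used as a readout. Several targets, LATS2 and AMOTL2 among them, act back on the pathway as inhibitors. YAP1 is governed mainly by phosphorylation and by where it sits in the cell, neither of which an RNA array measures.

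TEAD factors recognise the core word GGAATG, which reads CATTCC on the other strand. The members' promoters are shown because a TEAD word is the sequence feature that a set of YAP targets would be searched for. Members include known YAP targets, so their choice is not independent of that word. The share of members that hold it therefore tests nothing. RefSeq promoter windows of assembly GRCm38.p6 matched 7 of the 10 genes, with Ctgf, Wisp1 and Tead1 having no entry in the table used. In the 250 bases before a transcript start, either form of the word stood in 5 of these 7 genes, against 14.4% of all 26994 genes in the table. Each site is printed below 5′ to 3′ on the gene's strand within 60 bases, with the word in capitals.
Yap1 (chr9:8004705-8004764, minus strand): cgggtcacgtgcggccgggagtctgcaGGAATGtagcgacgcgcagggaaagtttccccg
Wwtr1 (chr3:57576014-57576073, minus strand): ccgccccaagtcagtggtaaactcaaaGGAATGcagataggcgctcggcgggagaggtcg
Cyr61 (chr3:145650056-145650115, minus strand): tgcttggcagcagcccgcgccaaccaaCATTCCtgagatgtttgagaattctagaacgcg
Ankrd1, first site (chr19:36120022-36120081, minus strand): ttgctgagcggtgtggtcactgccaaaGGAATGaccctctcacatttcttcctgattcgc
Ankrd1, second site (chr19:36119935-36119994, minus strand): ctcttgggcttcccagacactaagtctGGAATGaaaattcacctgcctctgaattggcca
Amotl2 (chr9:102717712-102717771, plus strand): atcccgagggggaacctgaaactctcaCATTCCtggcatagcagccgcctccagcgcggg

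The first base of the word lay 141 bases before the start of Yap1, 103 before Cyr61, 210 and 123 before Ankrd1 and 65 before Amotl2. Wwtr1 has 2 annotated starts that share 1 site, 136 and 170 bases downstream of it. A window with 2 or more such words was found at 1.02% of 32817 promoters. The windows of Amotl1 and Lats2 did not hold these letters. The AP-1 words TGACTCA and TGAGTCA, each the reverse complement of the other, stood in 4.46% of promoters and the CArG box of serum response factor in 1.47%, and the members' windows held 0 of either. Words this rare would seldom be met in so few windows, so nothing is read from that 0. A match is a run of letters and not a measured binding site.

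All 14 probes gave a higher value on the ELA-EpiSC array than on the EpiSC array. Differences here are log2 ELA-EpiSC minus EpiSC of normalized intensity, a gene stands for its brightest detected probe, and a gene was counted past a difference of 1 (2-fold) if its mean log2 level was at least 7.5. By this count 7 of the 10 genes passed in the direction of ELA-EpiSC and 0 in that of EpiSC, where 4.6% of 16649 genes did so towards ELA-EpiSC and 4.41% towards EpiSC. At 1.5-fold 8 of the 10 passed towards ELA-EpiSC, where 11.2% of all genes did. Since the genes were chosen with this contrast in view, nothing is read from that share. Their median difference was 1.58, beside 0.01 over all genes, whose central 95% ran from -1.31 to 1.37. Wwtr1 lay just under the threshold at 0.99, and the nearest genes past it were Lats2 and Tead1, both at 1.53. Wisp1 and Ankrd1 had EpiSC levels under 7.5 and met the minimum through their ELA-EpiSC level. The gene levels were also computed under 12 processing alternatives, and a range given with a difference below spans those and the value reported.

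**Figure D1:**
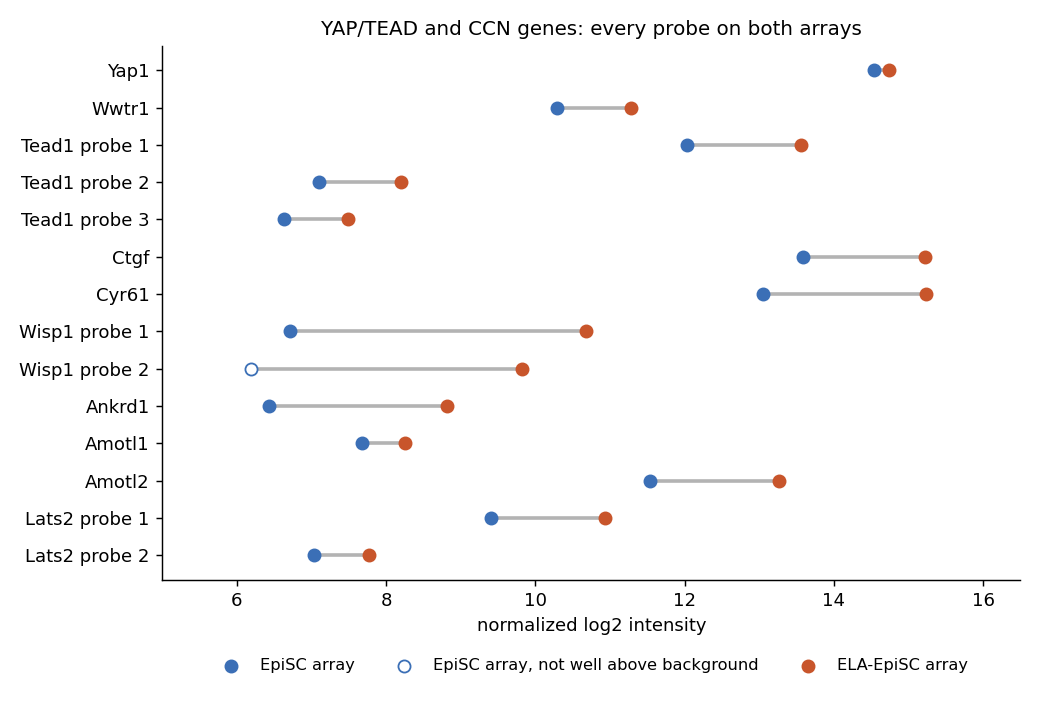
Normalized log2 intensity (x axis) of each of the 14 probes on the EpiSC array and the ELA-EpiSC array, 1 point per array and no error bar since each group had 1 array. The ELA-EpiSC point lies to the right for every probe, and the open point marks the Wisp1 probe that was not well above background in EpiSC.

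Yap1 RNA differed little between the groups, while Wwtr1 was about 2-fold higher in ELA-EpiSC. YAP1 and TAZ are paralogs that share TEAD partners and LATS control. The raw spot signal of Yap1 (probe at mm9 chr9:7932025-7932084) was 22951 intensity units in EpiSC and 27566 in ELA-EpiSC. After normalization its level was 14.54 and 14.73, a difference of 0.19 or 1.14-fold, which is 1.86 times the spot SD. That direction was not stable: the range was -0.03 to 0.72, and both scalings to the 75th percentile turned the sign. For Wwtr1 (mm9 chr3:57259999-57260058) the raw signal was 1086 units in EpiSC and 2693 in ELA-EpiSC. Its normalized level went from 10.29 to 11.27, a difference of 0.99 (range 0.98 to 1.52). The Wwtr1 difference thus exceeded that of Yap1 by 0.80 on the log2 scale, a gap without a replicate check.

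Tead1 was the TEAD gene with the highest difference. Its brightest probe (mm9 chr7:120049844-120049903) read 3779 raw units in EpiSC and 12957 in ELA-EpiSC, and the normalized level was 12.03 and 13.56, a difference of 1.53 or 2.89-fold (range 1.16 to 2.06). The other two Tead1 probes pointed the same way. The probe at mm9 chr7:120042204-120042263 had levels of 7.10 and 8.19, a difference of 1.10. At mm9 chr7:120043445-120043504 they were 6.63 and 7.48, a difference of 0.85. Both are dim, and the offset of 50 used in the background correction shrinks the difference of dim probes. Tead2, a TEAD gene of early embryos, was level between the groups at 15.66 and 15.62, a difference of -0.04 (range -0.38 to 0.49). Tead3 differed by 0.23 (range 0.16 to 0.75). Tead4, known for its part in forming trophectoderm, differed by 0.57 (range 0.53 to 1.10). The 4 TEAD genes therefore spanned 1.57 log2 units in their differences.

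Vestigial-like (VGLL) proteins bind TEAD in place of YAP1. Vgll4, a repressor of TEAD targets, had levels of 7.58 and 8.88, a difference of 1.30 (range 1.23 to 1.83). Vgll2 had levels of 6.64 and 8.22, a difference of 1.58, but its mean of 7.43 was under the minimum. Vgll1 was well above background in EpiSC only, with a bound of 1.10-fold at the values reported (difference -0.14, range -0.61 to 0.39). Vgll3 was below that mark on both arrays. Of the 7 TEAD and VGLL genes outside the 10, 4 could be counted, with a median of 0.40. Past 1 were 1 in ELA-EpiSC and 0 in EpiSC, where 4.6% and 4.41% of all genes were.

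The 3 CCN genes among the members were all higher in ELA-EpiSC, and Wisp1 by the most. CCN proteins are secreted into the matrix, where they bind integrins and growth factors. Ctgf (mm9 chr10:24318281-24318340) read 11397 raw units in EpiSC and 37900 in ELA-EpiSC. Its normalized level was 13.59 and 15.23, a difference of 1.64 or 3.11-fold (range 1.43 to 2.16). Cyr61 (mm9 chr3:145310187-145310246) read 7747 and 38237 raw units, and its level was 13.04 and 15.24, a difference of 2.19 or 4.58-fold (range 2.01 to 2.72). Both genes were well above background in EpiSC already, so the difference lies between 2 measured levels.

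Wisp1, described first as a Wnt-induced gene, was near background in EpiSC. Its brighter probe (mm9 chr15:66754637-66754696) read 66.3 ± 16.02 units (SD, n = 45 pixels of 1 spot) over a local background of 24 in EpiSC. In ELA-EpiSC it read 1787 ± 306 units (SD, n = 43 pixels) over 20. The normalized level was 6.71 and 10.68, a difference of 3.98 or 15.7-fold, which ranked 5 among 16649 genes and went from 3.80 to 5.42 over the alternatives. The other Wisp1 probe (mm9 chr15:66750958-66751017) was not well above background in EpiSC, at 38.4 raw units, and read 960 in ELA-EpiSC. Its level was 6.19 and 9.82, so its difference is a bound, 12.3-fold higher in ELA-EpiSC at the values reported. The log2 difference of this probe went from 3.45 to 6.80 over the alternatives that change probe values. Wisp1 was the single member past a difference of 2.5, which 0.402% of all genes passed in the direction of ELA-EpiSC.

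The rest of the CCN family was low. Nov (Ccn3) had levels of 6.54 and 6.75, a difference of 0.21 under the minimum level (range -0.03 to 0.74). Wisp2 and Wisp3 were not well above background on either array. Of the 6 CCN genes, 4 were detected, and their differences spanned 3.76 log2 units.

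Ankrd1, a nuclear cofactor first known from heart and a standard YAP target, was dim in EpiSC. Its probe (mm9 chr19:36186809-36186868) read 51.1 ± 15.2 units (SD, n = 44 pixels) over a local background of 25 in EpiSC and 461 ± 72.2 (SD, n = 42 pixels) over 26 in ELA-EpiSC. The normalized level was 6.43 and 8.82, a difference of 2.39 or 5.23-fold, rank 85 among 16649 genes. The range was 2.23 to 3.97, and the mean level of 7.62 fell under the minimum in 5 alternatives. Cardiac markers did not move as a group with Ankrd1: 5 of 10 could be counted, of which Actc1 (2.08) was higher in ELA-EpiSC and Myh7 (-2.44), Nkx2-5 (-2.24) and Tnni3 (-1.87) were higher in EpiSC. Their summed intensity was 5490 in EpiSC and 4889 in ELA-EpiSC. Actc1, with levels of 9.42 and 11.50, made up most of the ELA-EpiSC sum, so the sums say little about the other cardiac markers.

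**Figure D2:**
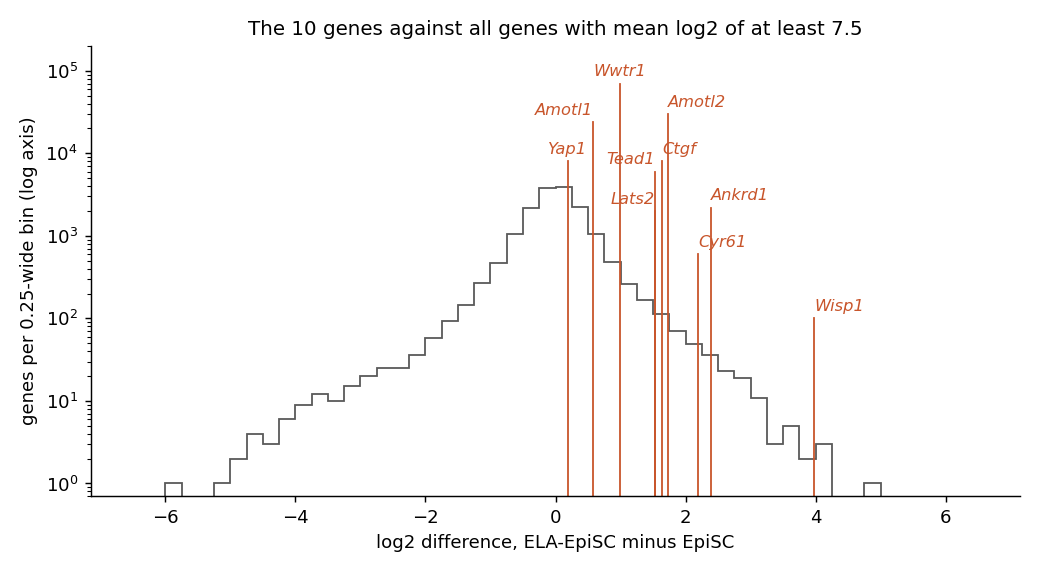
Number of genes per 0.25-wide bin (y axis, log scale) against the log2 difference ELA-EpiSC minus EpiSC (x axis) for 16649 genes whose mean log2 reached 7.5, with the 10 members marked by lines whose height carries no value. The members run from 0.19 (Yap1) to 3.98 (Wisp1), and 7 of them lie above the upper end of the central 95%, at 1.37.

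The angiomotin genes went apart. Angiomotins tether YAP1 at junctions and to actin, and they also promote LATS activity. Amotl2 (mm9 chr9:102635025-102635084) read 2661 raw units in EpiSC and 10719 in ELA-EpiSC, with levels of 11.54 and 13.27, a difference of 1.73 or 3.31-fold (range 1.71 to 2.26). Amotl1 (mm9 chr9:14351949-14352008) read 155 and 296 units, with levels of 7.67 and 8.25, a difference of 0.58 (range 0.49 to 1.11). Amot itself was lower in ELA-EpiSC, with levels of 17.40 and 16.08, a difference of -1.33 (range -1.82 to -0.80). Amotl2 and Amot were thus 3.06 log2 units apart in their differences, and neither changed sign under any of the 12 alternatives.

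Lats2 was higher in ELA-EpiSC than in EpiSC, and its paralog Lats1 by less. The brighter Lats2 probe (mm9 chr14:58308807-58308866) read 583 raw units in EpiSC and 2120 in ELA-EpiSC, with levels of 9.40 and 10.93, a difference of 1.53 or 2.89-fold (range 1.14 to 2.06). The dimmer probe (mm9 chr14:58341225-58341284) read 93.4 and 205 units, with levels of 7.03 and 7.78, a difference of 0.74. Lats1 had levels of 8.56 and 8.95, a difference of 0.39 (range 0.35 to 0.92).

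The core that acts on LATS differed little between the groups. Stk3 (MST2) differed by -0.43 (range -0.57 to 0.09, positive with scaling by the spike-in controls), and Stk4 (MST1) by 0.37 (range 0.25 to 0.90). The scaffold gene Sav1 differed by 0.13 and Nf2, which brings LATS to the membrane, by 0.09, while another Nf2 probe gave -0.08. Of 23 kinase, scaffold and adaptor genes listed beside the members, 20 could be counted, with a median of 0.32. Past 1 were 4 in ELA-EpiSC and 1, Amot, in EpiSC, where 4.6% and 4.41% of all genes were. The 4 were Rassf1 (1.39), whose product binds the MST kinases, Ptpn14 (1.29), a phosphatase that binds YAP1, Ajuba (1.22), a LIM protein that restrains LATS, and Wwc2 (1.01, 0.92 in its lowest alternative), a KIBRA relative that favours LATS. The smallest difference belonged to Stk38l at -0.00. Fat4 was well above background in ELA-EpiSC only, with a bound of 1.39-fold at the values reported (difference 0.48, range 0.18 to 2.00). Frmd6 was well above background on neither array.

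Other genes known as YAP or TAZ targets went partly the same way as the CCN genes. Of 17 listed, 13 could be counted, with a median of 0.67. Of these 9 were above 0, where 50.7% of all genes were, and the rest were lower in ELA-EpiSC. Past 1 were 5 in ELA-EpiSC and 1 in EpiSC, where 4.6% and 4.41% of all genes were. Igfbp3, an IGF-binding protein, had levels of 12.99 and 15.36, a difference of 2.37, and its other probe gave 1.48. Gadd45a, a stress response gene, had levels of 10.02 and 12.11, a difference of 2.09. Nt5e, the ectonucleotidase CD73, had levels of 9.39 and 11.37, a difference of 1.98. The receptor tyrosine kinase gene Axl differed by 1.32, and the fifth was Ptpn14, which the list of kinases and adaptors above also counts. Arhgef17 was higher in EpiSC, with levels of 9.96 and 8.87, a difference of -1.09 (range -1.23 to -0.56). The smallest difference was that of Asap1, -0.16, which was positive with scaling by the spike-in controls and when averaged with its other probe, at 0.31.

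**Figure D3:**
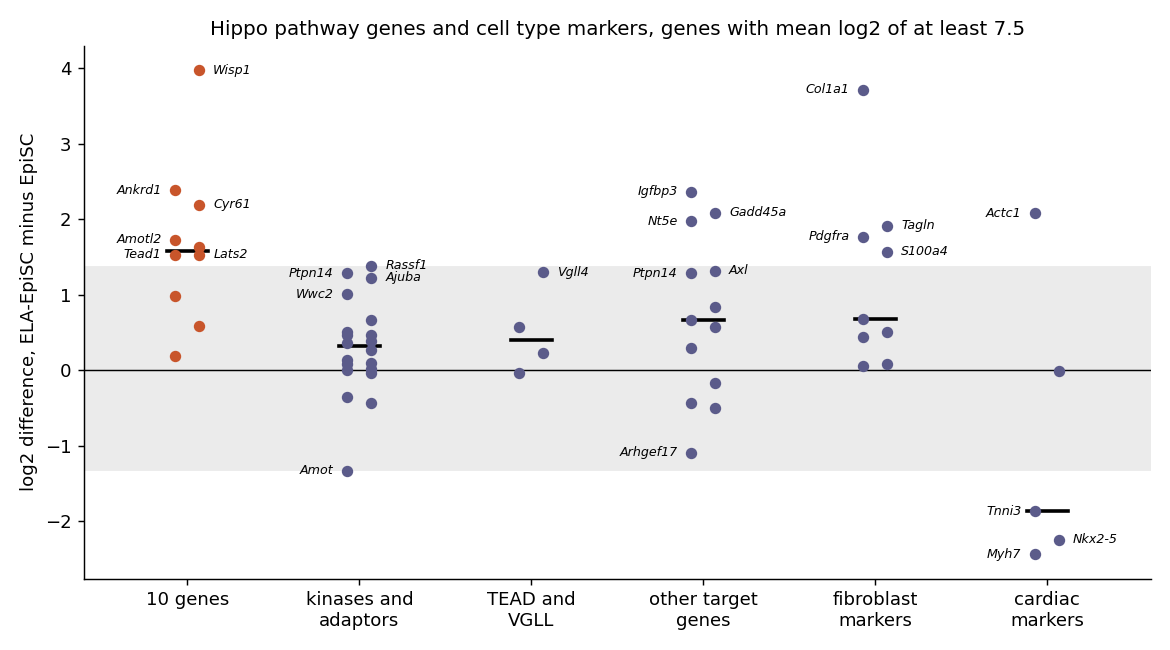
Log2 difference ELA-EpiSC minus EpiSC (y axis) of each gene whose mean log2 reached 7.5, 1 point per gene, grouped by Hippo pathway lists and by cell type marker lists (x axis). The fibroblast and mesenchyme points lie between 0.06 and 3.72, and the cardiac points run from -2.44 to 2.08.

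Some fibroblast and mesenchyme markers were higher in ELA-EpiSC, as the YAP/TEAD and CCN genes were. Of 14 such markers, 12 were detected in EpiSC and 13 in ELA-EpiSC. Past 1 in ELA-EpiSC were 4 of the 9 that could be counted, where 4.6% of all genes were. All 9 were above 0, where 50.7% of all genes were. Of these Thy1 and Col1a2 (0.08, with -0.03 in its lowest alternative) lay within the spot SD of 0.10. Of the 13 markers detected on 1 or both arrays, 12 were higher in ELA-EpiSC. Among those under the minimum level, Col3a1 was higher at 1.88 (range 1.71 to 3.09) and Dcn lower at -0.32 (range -0.50 to 0.20). Over the alternatives the count past 1 ran from 4 to 7, and the number of markers counted changed too. The summed intensity of the detected markers was 24347 in EpiSC and 71676 in ELA-EpiSC, and without Tagln, which made up most of that gap, 9450 and 15530. Past 1 were Col1a1 (3.72), Tagln (1.91), Pdgfra (1.77) and S100a4 (1.57), the lowest was Thy1 (0.06, with -0.03 in its lowest alternative), and Lum was not detected on either array. Tagln is itself an actin-linked gene that many contractile cells use. All 15 genes on the epiblast list could be counted, and 13 were above 0, where 50.7% of all genes were. Past 1 were 5 in ELA-EpiSC and 0 in EpiSC, where 4.6% and 4.41% of all genes were. The 5 were T (2.49), Zic2 (1.68), Nodal (1.49), Pou3f1 (1.47) and Tdgf1 (1.20, 0.95 in its lowest alternative). T is also a primitive streak gene and does not mark the epiblast alone. Dnmt3b was lowest at -0.82, and Pou5f1 differed by 0.20. The part of these markers in the YAP/TEAD values was not tested. In RNA of whole cultures, more cells of a type and more RNA per cell cannot be told apart.

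Markers of extraembryonic endoderm and trophoblast were mostly lower in ELA-EpiSC among those past 1. Of 12 extraembryonic endoderm markers 9 could be counted. Past 1 were 4 in EpiSC and 0 in ELA-EpiSC, where 4.41% and 4.6% of all genes were. The 4 were Hnf4a (-5.11), Ttr (-3.47), Amn (-2.75) and Gata4 (-2.39), and the highest difference was that of Dab2 (0.21). Ttr was well above background in EpiSC only, with a bound of 10.69-fold at the values reported (range of its difference -7.54 to -2.94). The summed intensity of these markers was 60157 in EpiSC and 33216 in ELA-EpiSC. Of 12 trophoblast markers 9 could be counted. Past 1 were 3 in EpiSC and 1 in ELA-EpiSC, where 4.41% and 4.6% of all genes were. The 3 were Ascl2 (-3.00), Gata3 (-2.56) and Elf5 (-1.48), and the 1 in ELA-EpiSC was Tfap2c (1.16). The trophoblast sums were 295923 in EpiSC and 248518 in ELA-EpiSC. Most of both sums came from the keratin genes Krt8 (difference -0.08) and Krt18 (-0.30), so the sums say little about the other trophoblast markers. Of 8 endothelial markers only Flt1 (-0.21) and Kdr (-0.42) could be counted, and 0 were past 1. No direction is read from them: both turned positive with scaling by the spike-in controls, another Kdr probe gave 1.49, and the median of the pair was 0.33 with the mean of detected probes.

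How the arrays were put on 1 scale moved the size of these differences. Quantile normalization, used for the values above, sets both arrays to 1 distribution, and with it 51.1% of the genes past 1 were higher in ELA-EpiSC. The 8 detected spike-in controls, RNAs added in known amounts at labelling, were all dimmer in ELA-EpiSC, by 0.53 on average after normalization. Scaling to them raised the median of all genes from 0.01 to 0.53 and that share to 88.8%, and scaling to the array median raised it to 68.3%. The spike-in scaling adds 1 constant to every gene. With it the median difference of the members was 2.11, and 9 of 10 were past 1 towards ELA-EpiSC, where 14.7% of all genes were. Of the 10 genes, 9 were higher in ELA-EpiSC under each of the 12 alternatives. Yap1 was lower only under the scalings to the 75th percentile. The differences of the 7 genes past 1 stayed over 1 in each alternative.

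**Figure D4:**
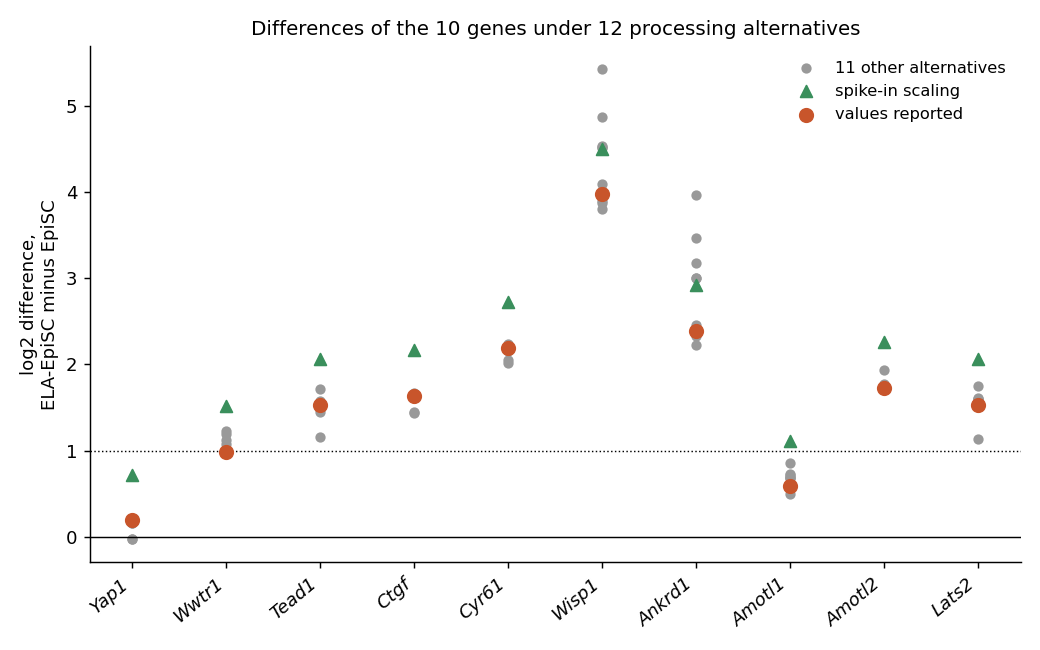
Log2 difference ELA-EpiSC minus EpiSC (y axis) of each of the 10 genes (x axis), with the value reported, the value with scaling by the spike-in controls, and the 11 other alternatives as points. Yap1 spans 0 with -0.03 to 0.72, Wwtr1 spans the threshold of 1, and Wisp1 has its lowest value at 3.80.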

How the data were processed

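The authors' scanner files give the unnormalized linear intensity of every spot and of the glass around it. Feature Extraction 10.7.3.1 wrote them per the file headers, while the submitters' processing notes name version 9.1 and limma, and probe coordinates are those of mm9. A deposited log2 table, background-corrected and quantile normalized by the authors, was used as an alternative. Both arrays were on 1 slide read in 1 scan.

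For the mean spot signal, normexp (limma 3.58.1, R 4.3.3) was fitted to all spots and given an offset of 50, and the arrays were quantile normalized over spots for transcripts. Spots flagged as outliers (158 in EpiSC, 117 in ELA-EpiSC, 0 of them of a member) were then dropped and spots of 1 probe averaged. Detection of a probe required that a share of 0.5 or more of its spots be well above background, and a gene took its brightest probe detected on at least 1 array. Where a probe was not well above background on 1 array, the brighter level was set against the higher of its own value and the lowest detected level of that array (5.89 in EpiSC, 6.11 in ELA-EpiSC), which gives a bound. Bounds were computed for the values reported and not for the alternatives. Quantile normalization hides a shift shared by all genes. Groups of 1 array allow no p-value, and the number of arrays limits the precision. The procedure was tested on simulated data in which only brighter probes were changed. The probes of Ankrd1, Wisp1 and Amotl1 and the dimmer Tead1 and Lats2 probes were dimmer than those in EpiSC. The simulation therefore says nothing about differences of probes that dim.

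The members and gene lists were chosen with earlier results of these data known. Named genes were the members, all other TEAD, VGLL and CCN genes listed, the core genes Lats1, Amot, Stk3, Stk4, Sav1 and Nf2, and, of the other lists, those past 1 and the smallest difference or, for cell types, the highest and lowest. Vgll2 was named under that rule although under the minimum level. Pou5f1, Fat4, Frmd6, Lum, Dcn, Col3a1, Col1a2, Krt8 and Krt18 fall outside it and were named after their values were seen, as was the sum without Tagln. No gene was named for likeness to a member, since 2 arrays give 1 difference and no pattern. Levels of different probes are not set against each other, except that the marker sums add them, so the brightest markers weigh most there. The longest run of bases that a member's probe shared with a probe of another gene was 16 of 60. Promoters came from RefSeq, assembly GRCm38.p6, and coordinates of mm9 and GRCm38.p6 were not combined. The 17 alternatives tried changed the background correction, the normalization, the spot values, the probe rule, the filters and the threshold.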

Additional observations from a re-analysis of the deposited data

How the results depend on the processing

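The 7 members past 1 in ELA-EpiSC became 8 with scaling to the median, with median pixel signal and at a threshold of 1.5-fold, 9 with scaling by the spike-in controls, 5 of 7 counted at a minimum level of 9, and 1 at a threshold of 2.5, and 0 were past 1 in EpiSC under each of these. Their median difference of 1.58 moved to 1.73 with scaling to the median, 2.11 with the spike-in controls and 1.40 with the mean of detected probes. Over all genes, 766 passed towards ELA-EpiSC and 734 towards EpiSC, against 2583 and 325 with the spike-in controls, 534 and 475 at a minimum of 9, 67 and 108 at a threshold of 2.5, and 1862 and 1796 at 1.5-fold. The cause of the shift with the scalings was not tested, while a stricter minimum or threshold counts fewer genes by construction. Of 120 single-gene values under an alternative, 78 moved by less than the spot noise and 42 by more, and the sign turned for Yap1 alone. Part of the 78 could not move. Keeping flagged spots changes no member, since 0 flagged spots were of a member, and averaging detected probes changes no gene with 1 probe. Yap1 was -0.03 and -0.02 under the scalings to the 75th percentile. Ankrd1 fell under the minimum, and Wwtr1 (1.01 to 1.19) passed 1 in its place, so that the count of 7 then held Wwtr1 and not Ankrd1, with the offset at 0 or 16, without background correction, with the processed signal and with the deposited table. Signal over background limits Ankrd1, Wisp1 and the dimmer Tead1 and Lats2 probes, whose EpiSC signal was 1.60 to 4.60 times local background. No paired analysis was possible because a group is a single array. Nor could a replicate be left out.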
